A study of Danio rerio with 8 samples.

Results

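Insulin-like growth factors (IGFs) act on cartilage as circulating and locally made peptides, and a set of secreted proteins decides how much of the ligand reaches its receptor. IGF binding proteins hold the ligand, pappalysins are metalloproteases that cut certain binding proteins and so free it, and stanniocalcins, in mammals, bind pappalysins and block that cut. The secreted serine protease HTRA1 degrades matrix proteins and, in mammals, also cleaves an IGF binding protein. The transcripts described here are the 10 genes igfbp1a, igfbp3, igfbp5b, igfbp7, pappaa, pappab, stc1, stc2a, htra1a and htra1b, each found by its symbol as 1 row of a table of 32057 zebrafish genes. Of these, 9 had a mean level of at least 0.5 FPKM over the 8 libraries and were tested; stc1 did not.

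The RNA came from cartilage cells of zebrafish (Danio rerio) at 3 days after fertilisation, sorted from whole larvae by 2 fluorescent reporters. The 4 kat6a libraries are labelled kat6a beside the transgenes Tg(sox10:EGFP) and Tg(col2a1a:mcherry), and the 4 WT libraries are labelled with these 2 transgenes alone, so all larvae share both reporters as well as rearing at 28.5 degrees Celsius in 0.003% PTU, which blocks pigment. The sox10 reporter marks neural crest derivatives and the col2a1a reporter marks cartilage. The series design calls the libraries biological replicates and describes the kat6a cells as deficient for kat6a, which encodes a histone acetyltransferase; what lesion they carry, whether WT larvae were siblings and how many larvae made 1 library are details that the labels leave out. The series title concerns IGF signalling and lymphatic vessels, and the comparison asks how kat6a deficiency changes expression in these cells.

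Values are FPKM, fragment numbers corrected for transcript length and library size, so levels of different genes are compared per length. Depth is unknown, summed FPKM was 311061 to 339307 per library, and 11010 to 16108 genes stood above 0. An exact 0 is read only as a listed value, because 13 of 13 mitochondrially encoded protein genes were listed at 0 in every library. All 8 chondrocyte markers were present, with a summed level of 33844 to 59235 FPKM in kat6a libraries and 27479 to 60080 FPKM in WT libraries; the lowest sum of each group came from its replicate 1. The gene kat6a itself had 28.2, 11.98, 12.4 and 9.09 FPKM in kat6a replicates 1 to 4. In WT replicates 1 to 4 it had 32.0, 15.2, 16.3 and 18.9 FPKM. Its log2 fold change was -0.46 ± 0.36 (SE; limma adjusted p = 0.958), or -0.78 without kat6a replicate 1 and -0.24 without WT replicate 1. Transcript level alone does not check the genotype. Libraries with the same replicate number in the 2 groups are also set side by side as 4 pairs. Their deviations from the group means correlated with r = 0.59 and 0.35 for numbers 1 and 2, but only 0.13 and 0.15 for numbers 3 and 4. No correlation was computed between libraries of unlike number, so the pairs are a description.

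The levels fell into a steep order. The most abundant transcript was igfbp3 (ENSDARG00000099144), whose product is known in zebrafish from work on the pharyngeal skeleton and inner ear. Its median over the 8 libraries was 132 FPKM, and by mean level it ranked 303rd of the 11763 genes tested. Below it came pappab at a median of 33.5 FPKM, igfbp1a at 29.4, stc2a at 24.9, igfbp5b at 15.3 and igfbp7 at 7.58 FPKM. The transcripts htra1b, pappaa and htra1a had medians of 1.92, 1.35 and 0.441 FPKM.

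Not every step in this order held in each library. In 8 of 8 libraries igfbp3 stood above pappab, stc2a above igfbp5b, and igfbp5b above igfbp7. By contrast, pappab exceeded igfbp1a in 6 of 8 libraries, and igfbp1a exceeded stc2a in 6 of 8. Lower down, igfbp7 exceeded htra1b in 6 of 8 and htra1b exceeded pappaa in 6 of 8. Last, pappaa exceeded htra1a in 5 of 8. The ranges of these neighbours overlapped, so their order is not fixed. The calcium-regulating hormone gene stc1 (ENSDARG00000003303) was listed at 0 in every library.

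**Figure D1:**
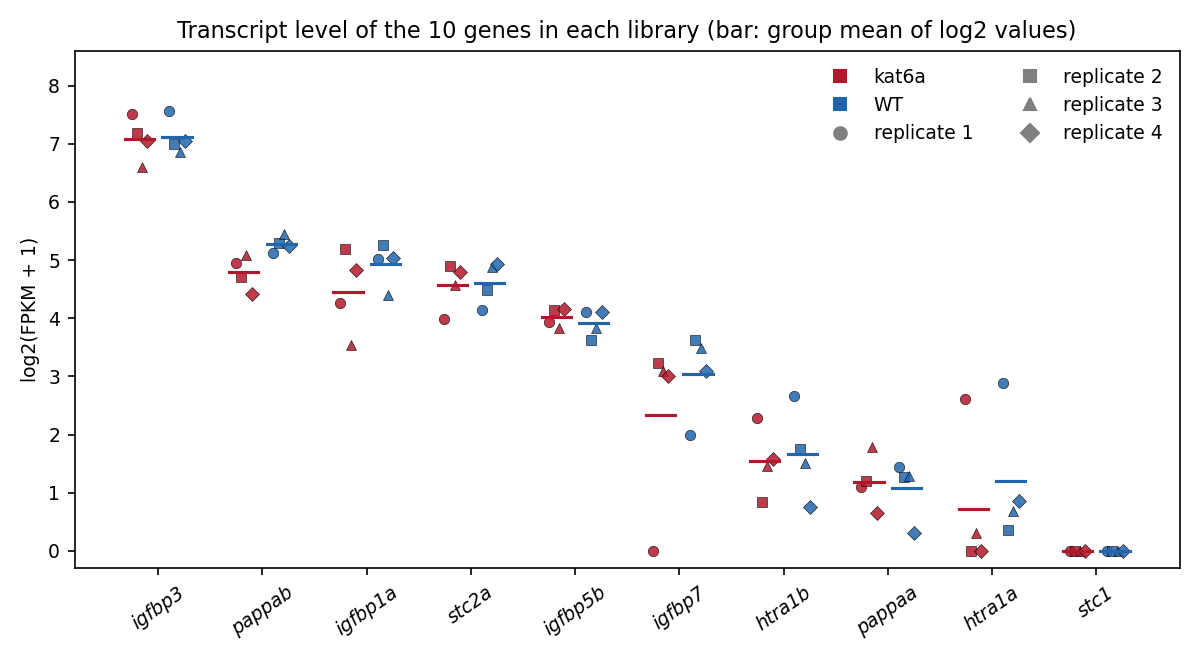
Level of each of the 10 genes as log2(FPKM + 1) in the 4 kat6a libraries (red) and the 4 WT libraries (blue); symbols mark the replicate number and bars the group mean of the log2 values. The igfbp3 points stand above those of the other 9 genes in all 8 libraries, stc1 is listed at 0 throughout, and the pappab points of the groups do not overlap.

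Of the binding proteins, igfbp3 made up most of the signal. It held 67.6%, 55.4%, 51.1% and 56.5% of the FPKM summed over the 10 genes in kat6a replicates 1 to 4, against 62.2%, 50.7%, 49.2% and 51.4% in WT replicates 1 to 4. Among the 10 igfbp genes in the table its share was 66.1% to 84.7% over the 8 libraries. The remaining igfbp paralogs were low: igfbp2b ranged from 0.164 to 4.86 FPKM, igfbp1b, igfbp2a and igfbp5a did not exceed 1.22 FPKM, and igfbp6a and igfbp6b were listed at 0 in every library. Summed igfbp transcript exceeded the summed transcript of the ligand genes igf1, igf2a and igf2b in every library, by 2.46 to 5.22 times in kat6a and by 1.91 to 5.78 times in WT. The lowest ratio of each group was that of its replicate 1, where igf2a was 44.4 FPKM in kat6a and 78.5 FPKM in WT, against 1.45 to 3.52 FPKM in the other 6 libraries.

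No gene among the 9 tested was called between kat6a and WT. In limma on log2(FPKM + 1), with Benjamini-Hochberg adjustment over all 11763 genes and a call at adjusted p under 0.05, 0 of 9 were called; the background was 0.017% of genes tested, or the 2 lens genes mipb and cryba4. The smallest adjusted p among the 9 was 0.958. At an unadjusted p under 0.05, 1 of the 9, pappab, was lower, where 3.92% of all genes tested were lower, and 0 were higher, where 0.646% were higher. Log2 fold changes lay between -0.71 and 0.11 with a median of -0.13, while the median of all genes tested was -0.16. No other tool was run across all genes.

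Among the members tested, the pappalysin gene pappab (ENSDARG00000059858) had the clearest separation of the groups on the deposited scale. Its level was 29.9, 25.3, 33.1 and 20.4 FPKM in kat6a replicates 1 to 4, against 33.9, 38.2, 42.7 and 36.96 FPKM in WT replicates 1 to 4. The lowest WT library lay just above the highest kat6a library, so the groups did not overlap, and within each of the 4 pairs the kat6a library was the lower one. The mean was 27.2 ± 5.56 FPKM in kat6a and 37.9 ± 3.67 FPKM in WT (SD, n = 4 each), which puts kat6a at 71.6% of WT. In limma its log2 fold change came to -0.48 ± 0.20 (SE), with a 95% interval of -0.93 to -0.042, an unadjusted limma p of 0.0350 and a limma adjusted p of 0.958.

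It was the single member whose groups did not overlap, against a background of 2.57% of genes tested that lay lower in kat6a without overlap; no member lay higher without overlap, against 0.561%. Without both libraries numbered 1 the mean was 26.2 ± 6.43 FPKM in kat6a and 39.3 ± 3.03 FPKM in WT (SD, n = 3 each), and the log2 fold change was -0.59 (limma adjusted p = 0.782). In the authors' deposited table the fold for pappab, WT over kat6a, was 1.38 with p = 0.0556 and q = 0.877. After median-ratio scaling of the libraries pappab was 24.1 to 34.2 in kat6a and 24.9 to 44.6 in WT, so that the groups then overlapped, and the log2 fold change was -0.33 (limma adjusted p = 0.976). Cells of the perichondrium and tendon lie against cartilage. The 8 markers fixed for them summed to 211 to 315 FPKM in kat6a and 245 to 406 FPKM in WT. This sum was lower in kat6a in each of the 4 pairs, but in the pair numbered 2 it was nearly equal (244 against 245 FPKM). In that pair col1a1a, col1a2, tnmd and scxa were higher in kat6a, and postnb, col5a1, col12a1a and thbs4b were lower. The sums are on the deposited scale, where 69.5% of genes tested were lower in kat6a. The 7 muscle markers summed to 278 to 396 FPKM in kat6a and 186 to 272 FPKM in WT, with no overlap and higher in kat6a. Of these 7, 2 (mylpfb and tnnt3b) were themselves higher without overlap, against 0.561% of genes tested. In the pair numbered 4 mylpfa, ckma, acta1b, myhz2 and tnni2a.4 were lower in kat6a. So were myhz2 in the pair numbered 1 and ckma in the pair numbered 2. The part of either tissue in the pappab values was not tested. A bulk sample cannot tell fewer cells of a type from less RNA per cell.

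The other pappalysin genes were scarce. The paralog pappaa (ENSDARG00000101090), known in zebrafish for releasing IGF in ionocytes and in the lateral line, had 1.14, 1.29, 2.45 and 0.578 FPKM in kat6a replicates 1 to 4, against 1.73, 1.41, 1.44 and 0.234 FPKM in WT replicates 1 to 4. These ranges overlapped widely, and kat6a was lower in 2 pairs and higher in 2. Its log2 fold change was 0.11 ± 0.36 (SE; limma adjusted p = 0.993). Transcript of pappab exceeded that of pappaa by 13.5 to 35.2 times in kat6a and by 19.6 to 158 times in WT, the last value being WT replicate 4.

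The third pappalysin gene, pappa2, is no member and failed the filter on low values; it was chosen for mention after its values were seen. It had 0.0757, 0, 0.0507 and 0.280 FPKM in kat6a replicates 1 to 4, against 0.413, 0.546, 0.648 and 0.316 FPKM in WT replicates 1 to 4. The kat6a values lay below every WT value, narrowly so at 0.280 against 0.316 FPKM, and at levels under 1 FPKM throughout. Without a filter its log2 fold change was -0.43 ± 0.12 (SE), with an unadjusted limma p of 0.00726 and a limma adjusted p of 0.861 over 19444 genes. The authors' deposited table gave p = 0.00783 and q = 0.877. Of genes that passed the filter, 2.57% were lower in kat6a without overlap and 3.92% were lower at an unadjusted limma p under 0.05. These shares were not computed over the 19444 genes.

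**Figure D2:**
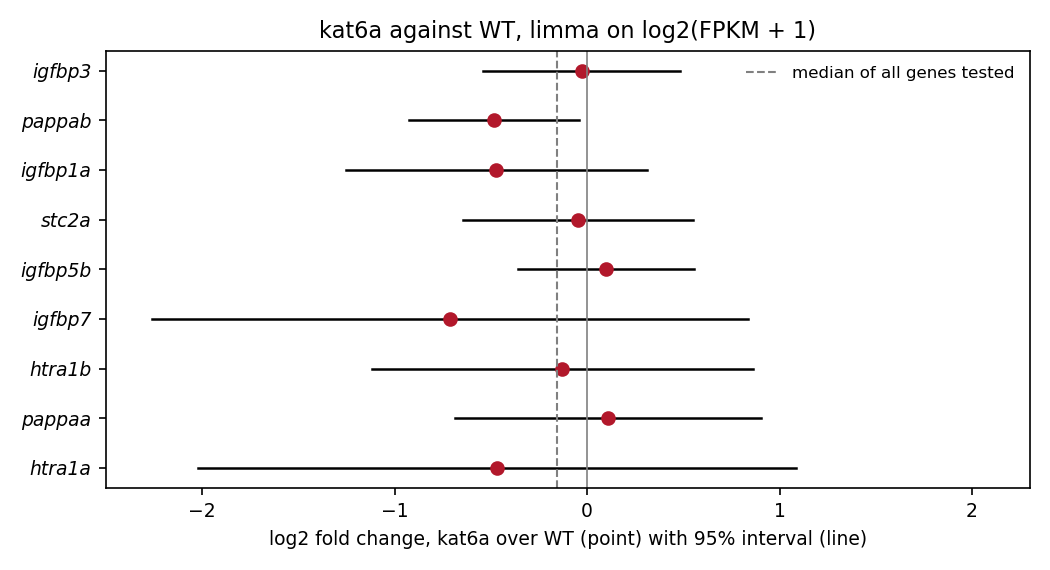
Log2 fold change of kat6a over WT for the 9 tested genes, from limma on log2(FPKM + 1), with 95% intervals unadjusted for the number of genes; the dashed line marks the median of all genes tested, -0.16. Only the pappab interval, -0.93 to -0.042, does not reach 0, and it includes the dashed line.

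Among the binding proteins, igfbp1a (ENSDARG00000099351), known in zebrafish embryos as a gene induced by low oxygen, had the widest relative spread of the 5 genes with a median above 10 FPKM, an SD of 35.3% of the mean over the 8 libraries. Its level was 18.1, 35.6, 10.7 and 27.5 FPKM in kat6a replicates 1 to 4, against 31.4, 37.4, 20.1 and 32.0 FPKM in WT replicates 1 to 4. Replicate 2 was the highest and replicate 3 the lowest in both groups, and the kat6a library was lower in 4 of 4 pairs although the groups overlapped. The log2 fold change was -0.47 ± 0.35 (SE; limma adjusted p = 0.958), with a 95% interval of -1.25 to 0.31.

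Markers of low oxygen and of liver, a site of igfbp1a expression, were set beside these values. The 9 hypoxia response genes in the table, of 10 listed, summed to 87.4 to 107 FPKM in kat6a and 98.4 to 106 FPKM in WT, and none of the 7 tested was called by limma. The 7 liver markers summed to 4.90 to 12.1 FPKM in kat6a and 10.9 to 28.0 FPKM in WT, with overlap through kat6a replicate 1 alone. Of the 5 liver markers tested, 0 were called by limma. At an unadjusted limma p under 0.05, 4 were lower in kat6a, against 3.92% of all genes tested. Without overlap, 2 were lower, against 2.57%. The defining liver marker on the list, fabp10a, was listed at 0 in 3 of the 4 kat6a libraries. In the pair numbered 1, however, fabp10a was higher in kat6a, at 3.47 FPKM against 2.99 FPKM in WT. The marker ambp was higher in kat6a in the pairs numbered 1 and 3. No other liver marker on the list was higher in kat6a in any pair. The liver sum, like igfbp1a, was lower in kat6a in each of the 4 pairs, and its part in the igfbp1a values was not tested. Without kat6a replicate 3 the log2 fold change of igfbp1a was -0.17, and without kat6a replicate 2 it was -0.72.

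For igfbp3 the groups were nearly level. It stood at 182, 145, 96.0 and 132 FPKM in kat6a replicates 1 to 4, against 189, 127, 115 and 131 FPKM in WT replicates 1 to 4. Both libraries numbered 1 were the highest of their group and both numbered 3 the lowest. The mean was 139 ± 35.7 FPKM in kat6a and 141 ± 32.8 FPKM in WT (SD, n = 4 each), and without the libraries numbered 1 it was 124 ± 25.3 FPKM in kat6a and 125 ± 8.58 FPKM in WT (SD, n = 3 each). The fold on the log2(FPKM + 1) scale was 0.980, with a 95% interval of 0.688 to 1.40. Its sign turned under median-ratio and upper-quartile scaling.

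The matrix-binding protein gene igfbp5b (ENSDARG00000025348) was the steadiest of the family. It had 14.4, 16.6, 13.2 and 16.9 FPKM in kat6a replicates 1 to 4, against 16.3, 11.4, 13.2 and 16.2 FPKM in WT replicates 1 to 4. Its SD over all 8 libraries was 2.02 FPKM around a mean of 14.8 FPKM, or 13.7%. The log2 fold change was 0.097 ± 0.21 (SE; limma adjusted p = 0.989), with a 95% interval of the fold of 0.780 to 1.47.

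The gene igfbp7 (ENSDARG00000104138), whose product binds IGFs only weakly and is known from blood vessels, depended on 1 library. Its level was 0, 8.39, 7.59 and 7.06 FPKM in kat6a replicates 1 to 4, against 2.97, 11.3, 10.2 and 7.57 FPKM in WT replicates 1 to 4. The library listed at 0 and the lowest WT library are both numbered 1, and kat6a was lower in 4 of 4 pairs. The log2 fold change of -0.71 ± 0.70 (SE; limma adjusted p = 0.968) rests on taking the listed 0 as a level, and was -1.47 with a pseudocount of 0.1; without kat6a replicate 1 it was 0.066, and without the pair numbered 1 it was -0.29. Of the 7 endothelial markers, kdrl, cdh5, pecam1 and tie1 did not exceed 0.484 FPKM in any library. The sum of the 7 was 17.4 to 32.4 FPKM in kat6a and 19.4 to 39.9 FPKM in WT, nearly all of it from fli1a, and its part in the igfbp7 values was not tested.

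The stanniocalcin gene stc2a (ENSDARG00000056680), whose product in mammals inhibits pappalysin activity, had 14.9, 28.7, 22.8 and 26.9 FPKM in kat6a replicates 1 to 4, against 16.6, 21.4, 28.6 and 29.7 FPKM in WT replicates 1 to 4. The libraries numbered 1 were the lowest of both groups, and otherwise the groups overlapped fully. The log2 fold change was -0.047 ± 0.27 (SE; limma adjusted p = 0.996), with a 95% interval of the fold of 0.640 to 1.46, and its sign turned under each of the 3 scalings. Its paralog stc1l, from the wider pathway list, had 0.173, 0.530, 1.86 and 1.97 FPKM in kat6a replicates 1 to 4. In WT replicates 1 to 4 stc1l had 0, 0.796, 0 and 0.839 FPKM. The log2 fold change of stc1l was 0.55 ± 0.39 (SE, limma adjusted p = 0.958), and 1.59 with a pseudocount of 0.1. The other paralog, stc2b, stood above 0 in 1 library alone, kat6a replicate 2, at 0.5005 FPKM.

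Ratios within a library do not depend on a size factor such as median-ratio or upper-quartile scaling. Of those computed, 2 are given here, which set pappab beside stc2a and igfbp5b. The ratio of pappab to stc2a transcript was 2.005, 0.879, 1.45 and 0.756 in kat6a replicates 1 to 4, against 2.04, 1.78, 1.49 and 1.25 in WT replicates 1 to 4. The ratio of pappab to igfbp5b transcript was 2.08, 1.52, 2.51 and 1.21 in kat6a replicates 1 to 4, against 2.08, 3.34, 3.23 and 2.28 in WT replicates 1 to 4. The first ratio was lower in kat6a in 4 of 4 pairs, narrowly so in the pairs numbered 1 and 3. The second was lower in 3 of 4 pairs and nearly equal in the pair numbered 1, and in both ratios the groups overlapped. These ratios were chosen with the pappab values known and were given no test.

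Both HTRA1 genes were near the lower end. The level of htra1a (ENSDARG00000032831) was 5.10, 0, 0.238 and 0 FPKM in kat6a replicates 1 to 4, against 6.42, 0.277, 0.606 and 0.822 FPKM in WT replicates 1 to 4. It was thus above 1 FPKM in the libraries numbered 1 and below 1 FPKM in the other 6, and lower in kat6a in 4 of 4 pairs. For htra1b (ENSDARG00000014907) the level was 3.89, 0.788, 1.75 and 1.99 FPKM in kat6a replicates 1 to 4, against 5.33, 2.36, 1.86 and 0.692 FPKM in WT replicates 1 to 4. Again the libraries numbered 1 were the highest of each group. The log2 fold changes were -0.47 ± 0.70 for htra1a, where 2 libraries are listed at 0, and -0.13 ± 0.44 for htra1b (SE; limma adjusted p = 0.987 and 0.994). Without WT replicate 1 they were 0.095 for htra1a and 0.20 for htra1b, and with a pseudocount of 0.1 the value for htra1a was -1.63. In the authors' deposited table the fold for htra1a, WT over kat6a, was 0.841 with p = 0.553, which is the other direction from the FPKM values.

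**Figure D3:**
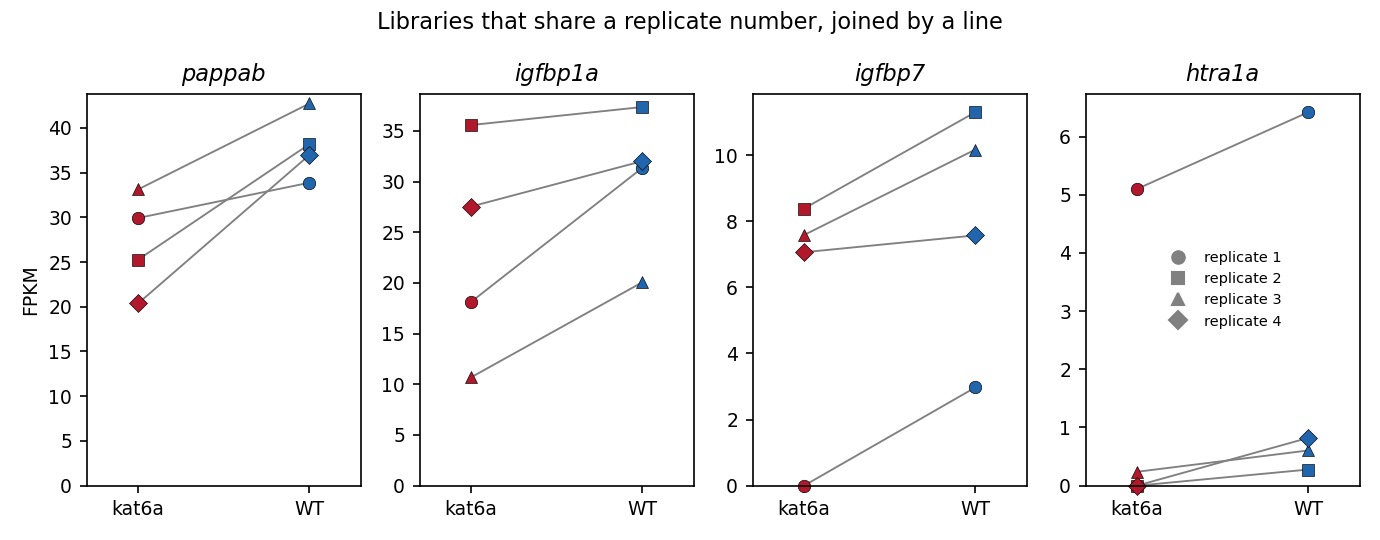
FPKM of the 4 genes that were lower in kat6a (red, left) than in WT (blue, right) in every pair, with libraries of the same replicate number joined by a line. All lines go up from kat6a to WT, the pappab groups do not overlap (20.4 to 33.1 FPKM in kat6a against 33.9 to 42.7 FPKM in WT), and the other 3 genes overlap.

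In all, 4 of the 9 members tested, namely pappab, igfbp1a, igfbp7 and htra1a, were lower in kat6a in 4 of 4 pairs. The background was 16.3% of genes tested. None was higher in 4 of 4, against 4.49%. The count takes a listed 0 in kat6a as a level for igfbp7 in the pair numbered 1. It does so for htra1a in the pairs numbered 2 and 4. By any amount 69.5% of genes tested were lower in kat6a, so a lower value is common on the deposited scale. After median-ratio or upper-quartile scaling 1 member, htra1a, was lower in 4 of 4 pairs, against 9.88% and 10.4% of genes tested. A size factor leaves a listed 0 at 0, so the htra1a pairs numbered 2 and 4 could not turn under these scalings. After quantile normalisation 2 were, igfbp1a and pappab, against 8.35%.

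Several members differed by replicate number. In both libraries numbered 1, igfbp3, htra1a and htra1b stood above, and stc2a and igfbp7 below, the other 6 libraries. The share of all genes tested that split in this way was not computed, so the split cannot be called particular to the members. Of 4915 genes searched, 708 had r of at least 0.9 with htra1a over the 8 libraries. For igfbp3 the values were 182 FPKM in kat6a replicate 1 and 189 FPKM in WT replicate 1, against 96.0 to 145 FPKM in the other 6. For stc2a they were 14.9 FPKM in kat6a replicate 1 and 16.6 FPKM in WT replicate 1, against 21.4 to 29.7 FPKM in the other 6. For htra1b they were 3.89 FPKM in kat6a replicate 1 and 5.33 FPKM in WT replicate 1, against 0.692 to 2.36 FPKM. For pappab, igfbp1a, igfbp5b and pappaa both values lay inside the range of the other 6. Chondrocyte markers split in these 2 libraries: col2a1a, col9a1a, col11a2 and matn1 were lower than in the other 6, while acana had 2127 FPKM in kat6a replicate 1 and 2389 FPKM in WT replicate 1, against 1240 to 1636 FPKM. The labels do not say what else the numbers stand for.

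**Figure D4:**
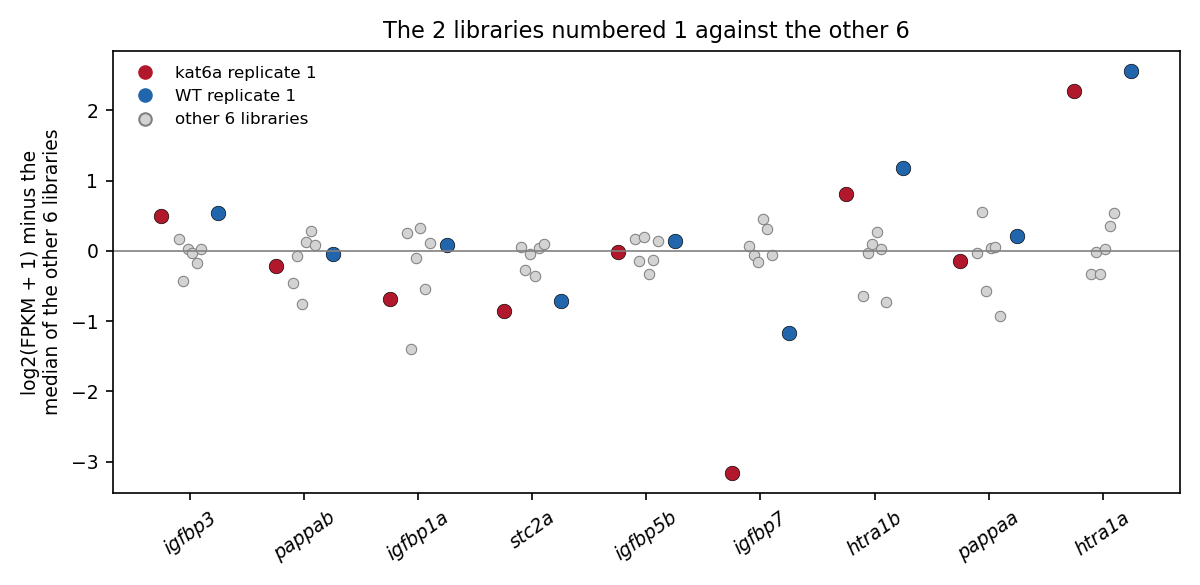
For the 9 tested genes, log2(FPKM + 1) in kat6a replicate 1 (red), WT replicate 1 (blue) and the other 6 libraries (grey), each minus the median of those 6. Red and blue points lie together above the grey ones for igfbp3, htra1b and htra1a, and together below them for stc2a and igfbp7.

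The map position of some members is shared. In the RefSeq annotation of assembly GRCz12tu, used for gene order only, igfbp3 and igfbp1a are adjacent protein-coding genes, as are igfbp5b and igfbp2b. Within the 6 libraries not numbered 1, log2 levels of igfbp3 and igfbp1a had a Pearson r of 0.94, but over all 8 libraries r was 0.44. The value of 0.94 was the highest over those 6 libraries among all pairs of tested members. It was not particular to the neighbour. Over the same 6 libraries igfbp1a had r = 0.95 with si:ch211-39i2.2 and 0.94 with prelid1a, neither of them adjacent to it. Libraries share their scaling and this is a description only. The adjacent igfbp5b and igfbp2b differed in level, with 11.4 to 16.9 FPKM for igfbp5b and 0.164 to 4.86 FPKM for igfbp2b over the 8 libraries. No r was computed for igfbp5b with igfbp2b. In WT replicate 2 igfbp5b was at its lowest, 11.4 FPKM, and igfbp2b at its highest, 4.86 FPKM.

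Genes whose pattern over the 8 libraries was most like that of a member were sought by Pearson r of log2(FPKM + 1) among 4915 genes with a mean of at least 5 FPKM. For pappab they were pelp1 (r = 0.96) and aclya (r = 0.95), with r = 0.97 and 0.95 over the 6 libraries not numbered 1. For igfbp3 they were fosl1a and si:dkey-79d12.5 (r = 0.97 each), and for igfbp1a si:ch211-39i2.2 and prelid1a (0.93 and 0.92). The number of genes with r of at least 0.9 was 708 for htra1a, which is high in the libraries numbered 1, 88 for igfbp3, 12 for pappab and 3 for igfbp1a. The named genes are the highest of 4915 values over 8 libraries, so a high r follows from the search. The 6 libraries are part of the same 8, so r over them is no separate test.

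Of the wider IGF pathway list, which holds ligands, receptors, insulin receptor substrates, further binding proteins and downstream kinases and factors, 28 of 30 genes were in the table and 17 were tested. None was called by limma in either direction, against 0.017% of all genes tested. At an unadjusted limma p under 0.05, 0 were lower, against 3.92% of all genes tested, and 0 were higher, against 0.646%. The median log2 fold change was -0.064, beside -0.16 for all genes tested. With stc1l, the genes of smallest p were the adaptor gene irs2a, at 13.5 ± 2.06 FPKM in kat6a and 16.5 ± 1.79 FPKM in WT (SD, n = 4 each), and the receptor gene igf1ra, at 5.35 ± 2.79 FPKM in kat6a and 6.83 ± 2.57 FPKM in WT. Their log2 fold changes were -0.28 ± 0.20 and -0.35 ± 0.35 (SE, limma adjusted p = 0.958 and 0.968). Both were lower in kat6a in 4 of 4 pairs, as were 16.3% of all genes tested. The pathway gene foxo3b was higher in kat6a in 4 of 4 pairs, as were 4.49% of all genes tested. For igf1ra the value was -0.61 without kat6a replicate 1 and -0.14 without WT replicate 1 or kat6a replicate 4; for irs2a it was -0.18 without kat6a replicate 2 and -0.13 with median-ratio scaling. The adaptor gene irs1 had 0.21 ± 0.24, igfbp2b -0.36 ± 0.44 and the kinase gene akt1, listed at 0 in 3 libraries, -0.60 ± 0.80 (SE), none of them called; with a pseudocount of 0.1 akt1 had -1.36 and igfbp2b -0.74. The ligand gene igf2b was 39.2 ± 5.25 FPKM in kat6a and 40.1 ± 6.29 FPKM in WT (SD, n = 4 each), and the ratio of pappab to igf2b was 0.461 to 0.994 in kat6a and 0.732 to 1.22 in WT.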

How the data were processed

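The authors deposited 1 table of FPKM values per gene, with a fold (ratio), p-value and q-value, per the file headers. The submitters' processing notes name HISAT2, StringTie and GRCz10; settings, annotation and the test behind the p-values are unstated there. The fold runs as WT over kat6a, judged from the values (Spearman rho of 0.816 across genes); some of its directions, that of htra1a among them, differ from those of the plain means. Columns were tied to samples by group and library index; the library name of WT replicate 4 repeats the number 3, and its title and index were followed.

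The test was limma (version 3.58.1, R version 4.3.3) with an intensity trend, two-sided, on log2(FPKM + 1). It ran on 11763 genes whose mean over the 8 libraries reached 0.5 FPKM. Each fold change is kat6a over WT on this scale, where changes of low genes come out too small. The members and lists were chosen with earlier results of these data known. Genes are named by a rule: the 10 members, kat6a, the 6 tested pathway genes of smallest p, and the 2 genes most like each member; others carry a remark or stand beside a member as markers or paralogs, and some that the rule names are left out for length or are not reported here. P-values measure the spread between libraries that the design calls biological replicates.

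Libraries that share a number were set side by side as pairs. Their deviations from the group means correlated across 11763 genes with r = 0.59, 0.35, 0.13 and 0.15 for numbers 1 to 4. No correlation was computed between libraries of unlike number, so these values cannot show that the shared number matters. A common shift in number 1 also moves the deviations of the other numbers. Alternatives were a pseudocount of 0.1, other filters, 3 scalings, a replicate block, array weights, and leaving out each library or the pair numbered 1. Depth is unknown, so no counting interval or floor was computed. Sequences of the proteins were not used here.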

Additional observations from a re-analysis of the deposited data

Results flagged for a closer look

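A set was 1 gene within a group of 4 libraries, and 32 sets were examined. In 5, the gap of 1 library to the nearest other, over the range, exceeded Dixon's 95% critical value for 4 samples. Chance flags about 1 in 20 sets of independent, normally distributed values. The sets here share the same 8 libraries and hold FPKM values, some near 0, so that rate is only a rough guide. All 5 flags fall on kat6a replicate 1 or WT replicate 1. For igfbp7, kat6a replicate 1 was listed at 0 FPKM, against 7.06 to 8.39 FPKM in the other kat6a libraries. For htra1a, kat6a replicate 1 had 5.10 FPKM, against 0 to 0.238 FPKM in the other kat6a libraries, and WT replicate 1 had 6.42 FPKM, against 0.277 to 0.822 FPKM in the other WT libraries. For igf1ra, WT replicate 1 had 10.6 FPKM, against 5.004 to 5.96 FPKM in the other WT libraries. For igfbp2b, kat6a replicate 1 had 0.164 FPKM, against 2.53 to 2.63 FPKM in the other kat6a libraries.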

How the results depend on the processing

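Of the 10 members and the other IGF pathway genes, 0 were called under each of the 18 alternatives, among those tested there. In the main fit 17 of the 28 pathway genes were tested. Of the members, stc1 was tested in none and htra1a not without the pair numbered 1. The pathway gene stc1l was not tested at a mean FPKM of 1. The count over all genes was 2; it was 1 with a pseudocount of 0.1 or with the replicate block, 0 without a filter, under median-ratio, upper-quartile or quantile scaling and with the block plus median-ratio scaling, 14 with array weights, 4 without the pair numbered 1, and 0 to 5 with single libraries left out. The replicate block changed no call of a member; with it the unadjusted limma p was 0.0115 for pappab and 0.0287 for igfbp1a, both with an adjusted p of 0.451. Members lower without overlap numbered 1 (2.57% of all genes tested), and 0 under each of the 3 scalings (1.77%, 1.77% and 1.16%). Members lower in 4 of 4 pairs numbered 4 (16.3%), and 1, 1 and 2 under median-ratio, upper-quartile and quantile scaling (9.88%, 10.4% and 8.35%). These counts under scaling were added after seeing the data. The pair counts take the listed 0 values of igfbp7 and htra1a as levels. The log2 fold change of pappab stayed below 0 in all 18 alternatives, from -0.59 to -0.33, with limma adjusted p of at least 0.451.

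Signs turned for 6 members and 2 other genes. For igfbp3 the log2 fold change was 0.13 with median-ratio scaling, with or without the block, 0.12 with upper-quartile scaling and 0.023 with array weights; for stc2a it was 0.11 with median-ratio scaling, with or without the block, 0.094 with upper-quartile and 0.047 with quantile scaling; and for htra1b 0.089 with quantile scaling. Without the pair numbered 1 igfbp2b stood at 0.0034 and akt1 at 0.17, and akt1 at 0.57 with array weights. With single libraries left out, the ranges were -0.17 to 0.13 for igfbp3, -1.06 to 0.066 for igfbp7, -0.15 to 0.28 for pappaa, -0.21 to 0.14 for stc2a, -1.10 to 0.095 for htra1a, -0.43 to 0.20 for htra1b and -0.52 to 0.045 for igfbp2b. The cause of these turns was not tested. The mean level of each member moved by less than its SD under median-ratio scaling. The 4 libraries per group limit the precision, and without counts the share of counting error in low genes such as htra1a and pappaa is unknown.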
